A study of Mus musculus with 6 samples.

Results

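The clustered protocadherins are cell-surface adhesion proteins whose genes lie in 3 neighbouring clusters, alpha (Pcdha), beta (Pcdhb) and gamma (Pcdhg), on mouse chromosome 18. They were taken as every listed gene symbol that begins with Pcdha, Pcdhb or Pcdhg, which gave 24 of 25896 symbols: Pcdhac1 for the alpha cluster, Pcdhb1 to Pcdhb22 for the beta cluster, and Pcdhga11 for the gamma cluster. Their mRNA was measured in the hippocampus of DICER1-ifKO mice and of WT mice. All mice were 3-month-old C57BL/6 males homozygous for Dicer1 flox, an allele that Cre recombinase can inactivate, and all had received tamoxifen (TMX) 3 weeks before they were killed. In DICER1-ifKO mice CaMKIIa-creERT2 was added, a Cre that tamoxifen activates and that is made in excitatory neurons of the forebrain, so that other cells of the hippocampus keep Dicer1. WT mice carried no Cre, and the loss of Dicer1 cannot be told apart from effects of the transgene itself. Each genotype had 3 libraries, and each library pooled RNA of 3 mice. Dicer1 encodes the ribonuclease that cuts microRNA precursors, and the comparison asks which hippocampal mRNAs differ after its inducible removal.

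In neurons, clustered protocadherins are expressed in combinations that differ from cell to cell. Each cell chooses variable exons through promoter activity that depends on CTCF, cohesin and DNA methylation, and the proteins pair between cell membranes by matching isoforms, which serves self-recognition of dendrites and axons. In the alpha and gamma clusters every variable exon carries its own promoter and is spliced to constant exons at the end of the cluster, whereas a beta gene is a self-contained unit with no constant exon. The annotation (GENCODE release M21, GRCm38) showed this layout. A coding exon was taken as shared when most coding genes of its cluster had it. The 13 coding Pcdha genes had 3 such exons of 456 bases in all, and the 22 coding Pcdhg genes had 3 of 372 bases in all. The 22 Pcdhb genes had 0 such exons, and 24 of their 26 coding transcripts had all of their coding sequence in 1 exon.

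The shared end also means a shared 3′ UTR, the part of an mRNA where microRNAs mostly bind. The 13 Pcdha genes had 1 and the same annotated 3′ UTR of 2401 bases, and 21 Pcdhg genes had 2 nearly equal sequences of 1741 and 1744 bases. The 22 Pcdhb genes had 22 different 3′ UTRs of 71 to 6117 bases. Of 26 brain microRNAs sought, 24 had a mature sequence in the reference used. The rest were left out, and the 24 are not a full set of brain microRNAs. Seed matches of these 24 were counted in the UTRs, a match being the reverse complement of bases 2 to 8 of the mature microRNA on the mRNA strand. The 6 microRNAs with a match in the alpha or the gamma UTR are shown here with the seed in capitals (RefSeq, GRCm38.p6).
mmu-miR-9-3p: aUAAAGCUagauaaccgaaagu
mmu-miR-181a-5p: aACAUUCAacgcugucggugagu
mmu-miR-29a-3p: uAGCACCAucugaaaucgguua
mmu-miR-218-5p: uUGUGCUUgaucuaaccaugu
mmu-miR-16-5p: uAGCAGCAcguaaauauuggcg
mmu-miR-22-3p: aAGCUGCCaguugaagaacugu
No 2 of these have the same seed. In the alpha UTR the site AGCTTTA of miR-9-3p occurred 3 times, TGAATGT of miR-181a-5p occurred 2 times, and TGGTGCT of miR-29a-3p, AAGCACA of miR-218-5p and TGCTGCT of miR-16-5p occurred 1 time each. In the gamma UTR GGCAGCT of miR-22-3p occurred 1 time and the other 23 sites did not occur. The microRNAs matching the alpha UTR and those matching the gamma UTR shared 0 members, and 20 of the 24 had a match in at least 1 Pcdhb UTR. Single matches are frequent in UTRs of this length: in the first 2401 bases of 4132 other UTRs, the miR-9-3p site occurred at least 1 time in 20.5%, the miR-181a-5p site in 26.4% and the miR-16-5p site in 34.9%. The shares with 3 miR-9-3p sites or 2 miR-181a-5p sites were not computed. The miR-22-3p site occurred in 16.1% of 6330 other UTRs cut to the gamma length. The sites are a description of sequence, and binding was not measured.

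What a deposited count covers decides how the alpha and gamma genes can be read. The files list 76938 transcripts with a start, an end and a raw count of reads. Of 120150 pairs in which the interval of one listed transcript contains another, 6987 of them on opposite strands, the outer interval had fewer reads in 0. Of 528 pairs in which another gene with a mean count of at least 300 lies inside an intron, 412 on opposite strands, the inner gene had the higher count in 0. The counts thus behaved as reads over the whole interval from start to end, on either strand, introns included. For the beta genes this matters little, since 99.1% to 100% of each interval is annotated exon. The interval that stands for the alpha cluster, listed as Pcdhac1 (18:36997880-37187657), is 189778 bases long with 10.8% exon. The interval that stands for the gamma cluster, listed as Pcdhga11 (18:37674335-37841870), is 167536 bases long with 38.8% exon. Pcdhac1 and Pcdhga11 are therefore called the alpha interval and the gamma interval here, since each holds all constant exons of its cluster. The gamma interval starts upstream of most gamma variable exons. The alpha interval holds those of Pcdha9, Pcdha11, Pcdha12, Pcdhac1 and Pcdhac2, which by the names in GENCODE M21 are 5 of the 13 coding alpha genes. The beta paralogs are close relatives, and how reads that align to several of them were counted is not given in the sources used here.

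Total counts over 1 transcript per gene were 15409076 to 20677846 in the DICER1-ifKO libraries and 11832791 to 16125477 in the WT libraries, and levels are given as CPM, counts scaled to a common library size after TMM normalization. WT replicate 1, the shallowest library, stood apart, at -26.6 on the first principal component against 1.504 to 10.1 for the other libraries. Over 17405 tested genes the log2 fold change ran weakly with the length of the counted interval (Spearman rho 0.17). Dicer1 itself had 59.7 ± 2.82 CPM in DICER1-ifKO and 57.8 ± 3.63 CPM in WT (SD, n = 3), a whole-gene count that does not separate the floxed exons, while Esr1, whose human counterpart supplies the ligand-binding domain of the creERT2 fusion, had 11.9 ± 1.76 CPM in DICER1-ifKO and 4.01 ± 0.762 CPM in WT. Of 11 marker lists of hippocampal and neighbouring cell types, none had a marker at 0 counts. The summed level overlapped between genotypes in 10 of the lists, among them dentate granule cells at 315 to 348 CPM in DICER1-ifKO and 345 to 364 CPM in WT, where 1 of 6 markers, Calb1, was called lower. The astrocyte list did not overlap, at 3551 to 3705 CPM in DICER1-ifKO and 3343 to 3521 CPM in WT, with 0 of 7 markers called. The median log2 fold change of these 7 markers was 0.0075, so the summed difference was not a general rise of the list.

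None of the 23 tested members passed the test between genotypes, in any of the 3 clusters. The test was edgeR's quasi-likelihood F-test with Benjamini-Hochberg adjustment over 17405 genes at 0.05, which called 28 genes or 0.161% of those tested, 22 of them (0.126%) higher and 6 (0.0345%) lower in DICER1-ifKO. At an unadjusted p below 0.05 it gave 1 of the 23 members, Pcdhb17, against 10.4% of all genes. Among the 5413 tested genes within the range of levels of the beta genes, it gave 346. DESeq2 called 0 as well, but it gave an adjusted p to 2 of the 23 members, the alpha and gamma intervals, since its filter on mean counts left out the others; it too had Pcdhb17 alone at an unadjusted p below 0.05. The 24th member, Pcdhb1, was too low to test, with 2, 4 and 1 reads in the DICER1-ifKO libraries and 0, 0 and 2 reads in the WT libraries. In bulk tissue, fewer cells that express a gene and less RNA per cell cannot be told apart, and the unrecombined cells of the hippocampus are in every library.

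The alpha interval had nearly equal levels in both genotypes. It had 1932, 2261 and 2633 reads, or 125.4, 125.5 and 128.6 CPM, in the DICER1-ifKO libraries, and 1471, 2065 and 1913 reads, or 125.2, 129.98 and 117.6 CPM, in the WT libraries. The WT libraries spread on both sides of the DICER1-ifKO libraries. The ratio of DICER1-ifKO to WT was 1.02, with a 95% interval of 0.949 to 1.09 (log2 fold change 0.03, SE 0.05; edgeR, Benjamini-Hochberg adjusted p 0.892). Without WT replicate 1 the log2 fold change was 0.03. Offsets for transcript length and GC content, for interval length, and the omission of WT replicate 3 each took it to just below 0, so it has no settled direction.

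The gamma interval was the most abundantly counted of the members. It had 7189, 8156 and 9870 reads, or 466.8, 452.7 and 482.0 CPM, in the DICER1-ifKO libraries, and 5323, 7059 and 7283 reads, or 453.1, 444.3 and 447.9 CPM, in the WT libraries. DICER1-ifKO replicate 2 fell just below WT replicate 1, and the other DICER1-ifKO libraries lay above all WT libraries. The ratio was 1.04, with a 95% interval of 0.979 to 1.11 (log2 fold change 0.06, SE 0.04; edgeR, Benjamini-Hochberg adjusted p 0.695). With an offset for interval length the log2 fold change was 0.02. These 2 intervals are the members measured most precisely, and the upper bounds of their ratios lie at 1.09 and 1.11.

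The beta genes were measured singly and at lower counts, from a mean of 20.2 reads per library for Pcdhb8 to 186.3 for Pcdhb17 among those tested. Of 21 tested, 13 had a positive and 8 a negative log2 fold change, or 61.9% positive against 49.0% of all tested genes. Their median was 0.06, against -0.0032 over all genes and -0.0066 over the 5413 genes in the same range of levels. Single values ran from -0.22 for Pcdhb15 to 0.40 for Pcdhb2 with SEs of 0.10 to 0.28 (edgeR, Benjamini-Hochberg adjusted p 0.291 to 0.997). DICER1-ifKO and WT libraries did not overlap for 2 of the 21, Pcdhb17 and Pcdhb2, both higher in DICER1-ifKO; among all tested genes 7.99% did not overlap and were higher and 8.07% did not overlap and were lower. Neither count of the beta genes stands far from that background.

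Pcdhb17 was the beta gene nearest to a call. It had 186, 227 and 261 reads, or 12.1, 12.6 and 12.7 CPM, in the DICER1-ifKO libraries, and 129, 146 and 169 reads, or 10.98, 9.19 and 10.4 CPM, in the WT libraries. All DICER1-ifKO libraries lay above all WT libraries. The ratio was 1.23, with a 95% interval of 1.06 to 1.43 (log2 fold change 0.30, SE 0.10; edgeR p 0.00873, Benjamini-Hochberg adjusted p 0.291). Under the alternative settings its log2 fold change stayed between 0.23 and 0.35 and it was called in none of those that gave it an adjusted p.

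Pcdhb2 had the highest log2 fold change on few reads. It had 34, 32 and 46 reads, or 2.21, 1.78 and 2.25 CPM, in the DICER1-ifKO libraries, and 18, 25 and 26 reads, or 1.53, 1.57 and 1.60 CPM, in the WT libraries. The groups were separate, yet the 95% interval of the ratio reached from 0.950 to 1.84 (edgeR, Benjamini-Hochberg adjusted p 0.577). Pcdhb7 had 8.25, 8.10 and 9.38 CPM in the DICER1-ifKO libraries, and 5.79, 8.06 and 8.12 CPM in the WT libraries. Its groups overlapped, WT replicate 1 alone was low, and its log2 fold change of 0.21 (SE 0.13; edgeR, Benjamini-Hochberg adjusted p 0.629) was 0.09 without that library. Pcdhb9, the highest beta gene per length in WT, had 10.8, 9.66 and 10.8 CPM in the DICER1-ifKO libraries, and 11.3, 10.01 and 12.2 CPM in the WT libraries. These overlapped, at a log2 fold change of -0.10 (SE 0.11; edgeR, Benjamini-Hochberg adjusted p 0.805).

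**Figure D1:**
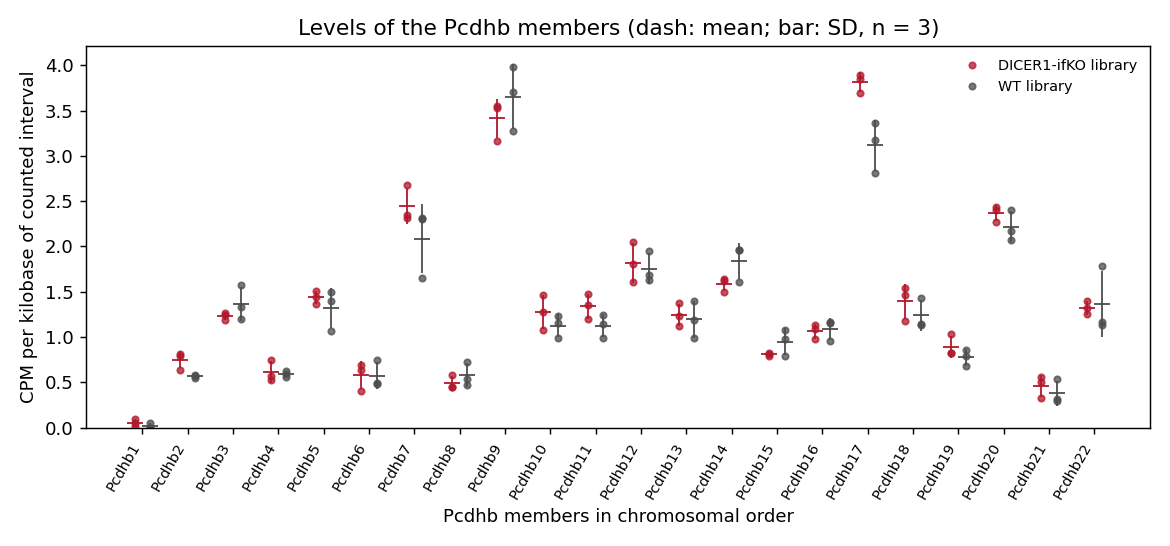
Level of each Pcdhb gene in CPM per kilobase of its counted interval, in chromosomal order, with DICER1-ifKO libraries in red left of WT libraries in grey (points, 3 libraries each; dash, mean; bar, SD). Pcdhb9 and Pcdhb17 stand above the other genes in both genotypes, Pcdhb1 is near 0, and the DICER1-ifKO and WT points of Pcdhb17 do not overlap.

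Summed over all 22 genes, the beta cluster had 107.0, 108.1 and 108.5 CPM in the DICER1-ifKO libraries, and 99.5, 99.8 and 107.1 CPM in the WT libraries. The mean was 107.9 ± 0.763 CPM in DICER1-ifKO and 102.1 ± 4.32 CPM in WT (SD, n = 3), and WT replicate 3 reached into the DICER1-ifKO range. That library also carried most weight in the median log2 fold change of the beta genes, which was 0.17 without it and 0.06 without WT replicate 1. In WT replicate 1 the beta genes had a median deviation of -0.12 log2 units from their means over all 6 libraries, and in DICER1-ifKO replicate 3 the highest, 0.06, whereas the median deviation of all genes was at most 0.00277 in size in any library. The part of that library in the result was not tested beyond these omissions.

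The order of the beta genes by level, in CPM per kilobase averaged over the 6 libraries, was steep at its ends and flat between. Pcdhb9 at 3.54 and Pcdhb17 at 3.47 came first, with overlapping ranges over the libraries. They were followed by Pcdhb20 at 2.30, Pcdhb7 at 2.27, Pcdhb12 at 1.79 and Pcdhb14 at 1.71. The next 8 genes, Pcdhb5, Pcdhb22, Pcdhb18, Pcdhb3, Pcdhb11, Pcdhb13, Pcdhb10 and Pcdhb16, lay between 1.38 and 1.08. Pcdhb15, Pcdhb19, Pcdhb2, Pcdhb4, Pcdhb6, Pcdhb8 and Pcdhb21 went down to 0.422, and Pcdhb1 had 0.0355. Of 21 pairs of neighbours in this order, 19 had overlapping ranges; the breaks fell below Pcdhb17 and below Pcdhb21. The highest and the lowest tested gene differed 8.39-fold in level per kilobase.

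The order was similar in both genotypes. The log2 level per kilobase of the 21 tested beta genes in DICER1-ifKO had a Pearson r of 0.976 with that in WT, a description across genes of the same libraries. Pcdhb17 ranked first in DICER1-ifKO at 3.82 ± 0.108 CPM per kilobase and second in WT at 3.12 ± 0.279 CPM per kilobase. Pcdhb9 ranked second in DICER1-ifKO at 3.41 ± 0.219 and first in WT at 3.66 ± 0.357 CPM per kilobase. Pcdhb16, Pcdhb6, Pcdhb21 and Pcdhb1, 4 in all, kept their rank exactly, and the largest change, of 6 ranks, belonged to Pcdhb3 in the flat middle of the order, at 1.23 ± 0.0424 in DICER1-ifKO and 1.37 ± 0.191 CPM per kilobase in WT. Genes at opposite ends of the level order lie side by side on the chromosome: Pcdhb8 had 0.536 and its neighbour Pcdhb9 3.54 CPM per kilobase, and no gradient along the cluster is visible in the plot of beta levels.

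The alpha and gamma intervals could be taken apart further, because 9 transcripts are listed for each and their intervals are nested with a common end (in the alpha cluster 6 end after the 3′ UTR and 3 before it). Subtracting the count of each interval from that of the next longer one left the reads between neighbouring starts, called segments here. Most segments hold the variable exon of 1 gene or of a few neighbours, and the last one of each cluster holds the most downstream variable exon with all constant exons and the 3′ UTR. This split was chosen after the data were seen. A segment's count covers its whole length on either strand, introns included, and annotated exons make up 3.60% (Pcdha12) to 78.6% (Pcdhgc4) of the segments. How a read spliced from a variable exon to the constant exons was counted is not given. Gene names of segments come from GENCODE M21, which places 2 neighbouring segments in Pcdha11, and Pcdha4 to Pcdha8 and the first gamma genes are in no segment. Each of the 2 Pcdha11 segments holds a first coding exon. M21 names no coding Pcdha10 in the cluster, and whether 1 of these 2 segments belongs to that gene was not checked. The labels first exon and second exon give only their order on the chromosome.

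**Figure D2:**
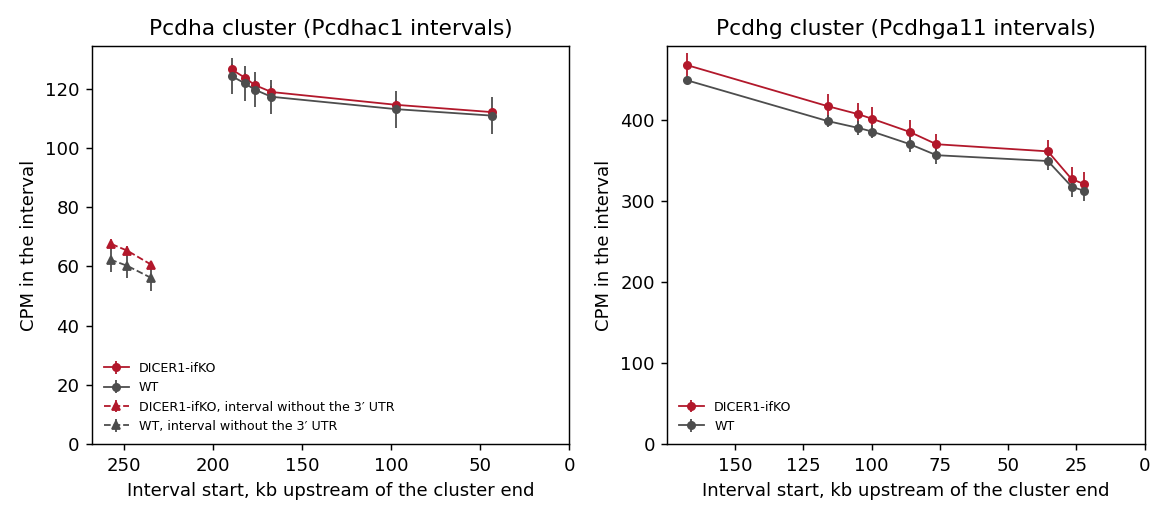
Mean CPM (bar, SD, n = 3) in each listed interval of the alpha and gamma clusters, against the distance of its start from the cluster end in kilobases, for DICER1-ifKO in red and WT in grey. Levels stay high down to the shortest interval, so most reads lie at the constant end, and the 3 alpha intervals that stop before the 3′ UTR (triangles) sit at 56.1 to 67.6 CPM against 111 to 127 CPM for those that include it.

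Most reads of both clusters came from the constant end. In the alpha interval the last segment, Pcdhac2 with the constant exons, held 88.0%, 89.7% and 88.2% of the reads in the DICER1-ifKO libraries, and 88.2%, 90.2% and 89.3% in the WT libraries, with Wilson 95% intervals spanning 86.5% to 91.4%. In the gamma interval the last segment, Pcdhgc5 with the constant exons, held 68.0%, 68.2% and 69.8% in the DICER1-ifKO libraries, and 72.0%, 67.9% and 69.0% in the WT libraries, with Wilson intervals spanning 66.8% to 73.2%. These intervals cover counting error only. Both shares overlapped between genotypes, and exact two-sided permutation tests over the 3 and 3 libraries gave p = 0.5 for alpha and p = 0.7 for gamma. In every library the gamma interval had a larger share of its reads upstream of the last segment than the alpha interval, which does not reach the first 8 alpha genes.

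The 2401 bases of the alpha 3′ UTR alone held over 50% of the reads of the alpha interval. A lower bound on this share, from intervals that stop before the UTR and begin further upstream, was 52.3%, 51.8% and 52.1% in the DICER1-ifKO libraries, and 56.4%, 52.9% and 55.3% in the WT libraries. The bound falls with reads in the added upstream stretch, so a difference in the bound need not be one in the UTR share. For the bound, all DICER1-ifKO libraries lay below all WT libraries, at a mean of 52.1% ± 0.227 against 54.9% ± 1.76 (SD, n = 3). The exact two-sided permutation test of the bound gave p = 0.1, the smallest that 3 libraries against 3 allow, and 0.3 after Benjamini-Hochberg adjustment over the 3 shares compared. No Wilson interval is given for the bound. It subtracts a count that includes reads from upstream of the alpha interval, so it is not a plain share of that interval's reads. Whether counting error alone could separate the groups was not tested. The last alpha segment, which holds this UTR, had 110.4, 112.6 and 113.3 CPM in the DICER1-ifKO libraries, and 110.5, 117.3 and 105.0 CPM in the WT libraries (log2 fold change 0.02, SE 0.05; edgeR, Benjamini-Hochberg adjusted p 0.948), so the groups overlapped there.

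Reads in the inner alpha segments were few, and none of these segments was called. Of the 7 inner alpha segments 6 had a positive log2 fold change, and the 7 ranged from -0.03 to 0.25 around a median of 0.19, with SEs of 0.16 to 0.23; over all tested genes 49.0% were positive. The segment named Pcdha11, second exon, with 48, 32 and 46 reads in the DICER1-ifKO libraries and 33, 37 and 35 reads in the WT libraries, lies wholly inside Gm10545, a gene on the opposite strand, so its reads cannot be assigned to either gene. Gm10545 also overlaps the end of the segment named Pcdha11, first exon, which had the highest log2 fold change of the 7, and the start of the Pcdha12 segment. Some reads of these segments may therefore be from Gm10545. In edgeR with Benjamini-Hochberg adjustment over 17420 features, 0 of the 7 segments were called (0.161% of all features were), 0 had an unadjusted p below 0.05 (10.4% of all), and in 0 were the genotypes separate. The C-type gene Pcdhac1, whose promoter is not subject to the stochastic choice of the others, is the segment furthest downstream of the 7. It had 35, 42 and 57 reads, or 2.27, 2.33 and 2.78 CPM, in the DICER1-ifKO libraries, and 28, 35 and 32 reads, or 2.38, 2.20 and 1.97 CPM, in the WT libraries. The groups overlapped (log2 fold change 0.19, SE 0.21; edgeR, Benjamini-Hochberg adjusted p 0.798).

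None of the inner gamma segments was called either. All 8 log2 fold changes were positive, against 49.0% of all tested genes, and ran from 0.01 to 0.36 around a median of 0.18. Without WT replicate 1, 2 of the 8 became negative, the first segment (Pcdhga3 to Pcdhgb4) at -0.04 and the segment of Pcdhga10, Pcdhgb6 and Pcdhgb7 at -0.04. In edgeR 0 of the 8 were called after Benjamini-Hochberg adjustment; Pcdhga9 and Pcdhga12 made 2 at an unadjusted p below 0.05. The genotypes were separate, with DICER1-ifKO higher, in 3 of the 8, Pcdhga12, Pcdhgc3 and Pcdhgc4, against 8.0% of all features. The segments are neighbours counted in the same libraries, so they are not independent counts of that event. The summed astrocyte markers, given above, were also higher in every DICER1-ifKO library than in any WT library, at a median log2 fold change of 0.0075. The part of the summed difference in the gamma values was not tested.

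Pcdhga9 had the highest log2 fold change of the segments. It had 100, 104 and 103 reads, or 6.49, 5.77 and 5.03 CPM, in the DICER1-ifKO libraries, and 61, 75 and 59 reads, or 5.19, 4.72 and 3.63 CPM, in the WT libraries. DICER1-ifKO replicate 3 fell below WT replicate 1 (log2 fold change 0.36, SE 0.16; edgeR p 0.0361, Benjamini-Hochberg adjusted p 0.439). Pcdhga12 had 143, 169 and 157 reads, or 9.28, 9.38 and 7.67 CPM, in the DICER1-ifKO libraries, and 78, 117 and 124 reads, or 6.64, 7.36 and 7.63 CPM, in the WT libraries. The groups were separate by a narrow margin between DICER1-ifKO replicate 3 and WT replicate 3 (log2 fold change 0.27, SE 0.12; edgeR p 0.0429, Benjamini-Hochberg adjusted p 0.458).

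The C-type gamma genes differ from the other variable genes in being expressed by most neurons rather than by chance choice. Pcdhgc3 had 34.2, 34.8 and 33.3 CPM in the DICER1-ifKO libraries, and 29.5, 32.4 and 32.3 CPM in the WT libraries. The groups were separate, at 34.1 ± 0.779 CPM in DICER1-ifKO and 31.4 ± 1.67 CPM in WT, but the difference did not pass the test (log2 fold change 0.11, SE 0.07; edgeR, Benjamini-Hochberg adjusted p 0.604). Per kilobase of exon Pcdhgc3 had 10.2 CPM in DICER1-ifKO and 9.41 CPM in WT, whereas the other 7 inner gamma segments lay at 1.11 to 2.84 CPM over all libraries. The C-type Pcdhgc4 was among these 7, at 1.63 CPM, so it did not share the high level of Pcdhgc3. These counts include introns; per kilobase of the whole segment Pcdhgc3 had 3.78 CPM over all libraries and the other 7 had 0.196 to 1.47 CPM. Pcdhgc4, an isoform linked to neuronal survival in mice, had 6.23, 5.88 and 6.30 CPM in the DICER1-ifKO libraries, and 5.02, 5.16 and 5.72 CPM in the WT libraries. These were separate as well (log2 fold change 0.21, SE 0.13; edgeR, Benjamini-Hochberg adjusted p 0.646). Pcdhgc5 could be read only together with the constant exons, at 317.3, 308.6 and 336.3 CPM in the DICER1-ifKO libraries, and 326.1, 301.7 and 309.2 CPM in the WT libraries, which overlapped (log2 fold change 0.04, SE 0.05; edgeR, Benjamini-Hochberg adjusted p 0.824).

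**Figure D3:**
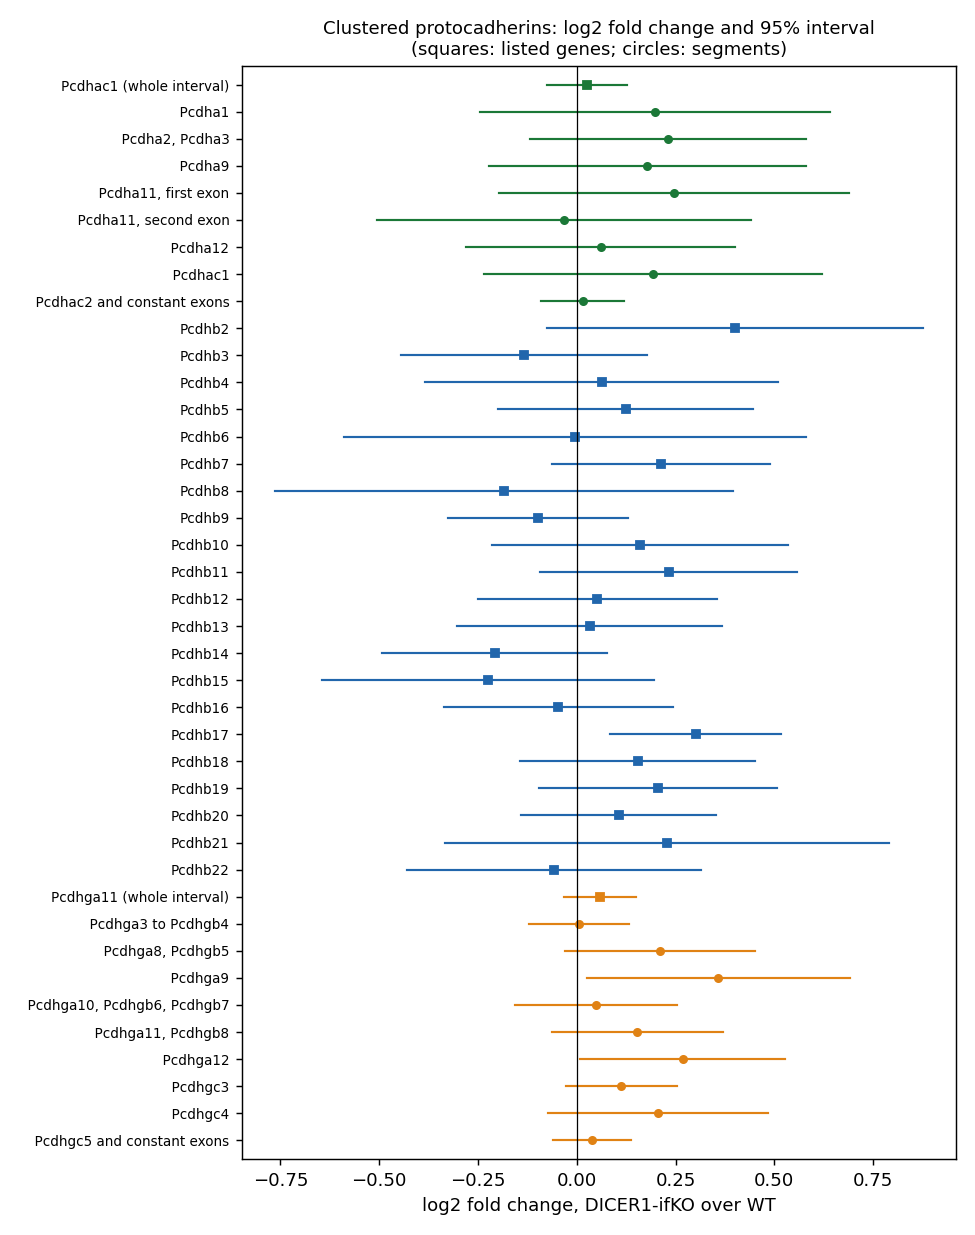
Log2 fold change, DICER1-ifKO over WT, with a 95% interval derived from edgeR's F-test. Listed genes are squares, and segments of the alpha and gamma intervals are circles. Alpha is in green, beta in blue and gamma in orange. The whole intervals and the constant ends have narrow intervals close to 0, the inner segments and beta genes have wide ones, and the intervals that leave out 0 are those of Pcdhb17, Pcdhga9 and Pcdhga12, none of which was called after adjustment.

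All 9 listed transcripts of each cluster were also read in a fit over every transcript. The log2 fold changes lay between 0.00 and 0.11 for the alpha transcripts and between 0.02 and 0.05 for the gamma transcripts, and 0 of the 18 were called, against 47 of 60500 transcripts in all. The 3 alpha transcripts that stop before the 3′ UTR had 67.6 ± 1.57, 65.3 ± 1.49 and 60.6 ± 0.843 CPM in DICER1-ifKO, and 62.2 ± 3.99, 60.2 ± 3.98 and 56.1 ± 4.49 CPM in WT. The 6 that run through it had 112 to 127 CPM in DICER1-ifKO and 111 to 124 CPM in WT.

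**Figure D4:**
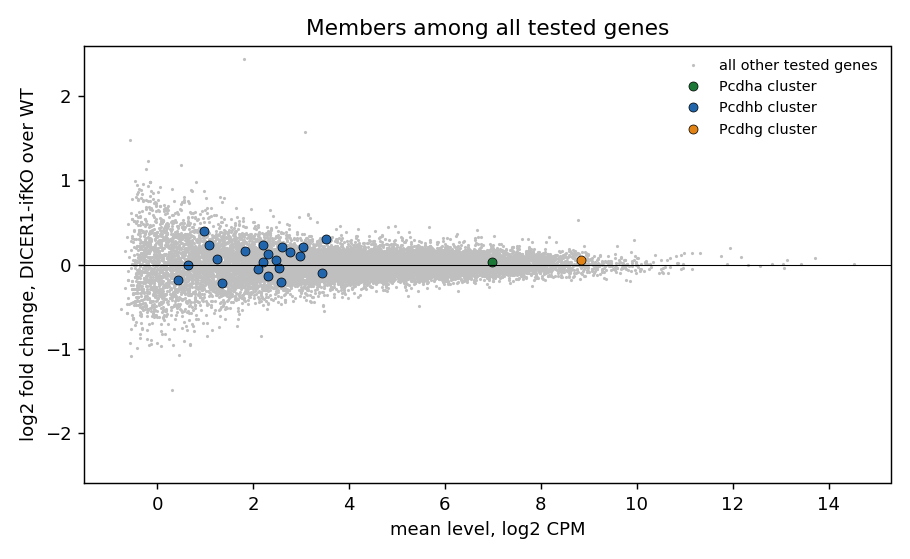
Log2 fold change, DICER1-ifKO over WT, against the mean level in log2 CPM for all tested genes (grey) and the 23 tested members, with alpha in green, beta in blue and gamma in orange. The beta genes lie in the wide low part of the cloud and the alpha and gamma intervals in its narrow high part, all within the scatter of the other genes.

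Genes interspersed with the clusters or next to them were read for comparison. Taf7, a subunit of the general transcription factor TFIID whose gene lies between the beta and gamma clusters on the opposite strand, had 5.65 ± 0.117 CPM in DICER1-ifKO and 4.52 ± 0.668 CPM in WT (log2 fold change 0.31, SE 0.15; edgeR p 0.0469, Benjamini-Hochberg adjusted p 0.469). Diap1, as the files name the nearest tested gene downstream of the gamma cluster, had 60.01 ± 4.79 CPM in DICER1-ifKO and 54.7 ± 1.30 CPM in WT (log2 fold change 0.14, SE 0.06; edgeR p 0.0369, Benjamini-Hochberg adjusted p 0.442). Gm6756 upstream of the alpha cluster, Gm10545 on the opposite strand within it, and 3222401L13Rik between beta and gamma had log2 fold changes of 0.23, 0.09 and -0.40 (edgeR, Benjamini-Hochberg adjusted p 0.665 to 0.915). Gm10545 had 70, 51 and 69 reads in the DICER1-ifKO libraries, and 45, 52 and 49 reads in the WT libraries, which are part of the alpha interval's count as well. Slc25a2, between beta and gamma, had 0 to 3 reads per library and was not tested.

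Genes that regulate the choice of the clustered protocadherins, or act with their products, were read from 5 lists, and edgeR with Benjamini-Hochberg adjustment called 0 members of any of them. Over all tested genes 49.0% had a positive log2 fold change and 10.4% an unadjusted p below 0.05. Of 13 tested cohesin and CTCF genes, which fold the promoters towards their enhancers, 9 had a positive log2 fold change at a median of 0.04, and 1 had an unadjusted p below 0.05. That was Mau2, part of the cohesin loader, at 89.1 ± 2.31 CPM in DICER1-ifKO and 81.0 ± 2.49 CPM in WT (log2 fold change 0.14, SE 0.05; edgeR, Benjamini-Hochberg adjusted p 0.329), followed by Rad21, a cohesin subunit, at 0.09 (adjusted p 0.580). Of 9 DNA methylation and silencing genes 5 were positive at a median of 0.02, and 2 had an unadjusted p below 0.05. Dnmt3a, a de novo DNA methyltransferase, had 79.8 ± 3.05 CPM in DICER1-ifKO and 71.6 ± 6.05 CPM in WT (log2 fold change 0.15, SE 0.06; edgeR, Benjamini-Hochberg adjusted p 0.366).

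On the side of the proteins, 21 intracellular partners and effectors, among them the kinases Fyn and Ptk2 and the WAVE complex, had a median of 0.01 with 11 positive and 1 at an unadjusted p below 0.05. The small GTPase Rac1 had 222.7 ± 10.7 CPM in DICER1-ifKO and 238.6 ± 7.38 CPM in WT, which overlapped (log2 fold change -0.10, SE 0.05; edgeR, Benjamini-Hochberg adjusted p 0.481). Of 10 proteases and membrane partners 7 were positive at a median of 0.04, and 2 had an unadjusted p below 0.05. Celsr3, an atypical cadherin of axon guidance, had 145.3, 143.8 and 143.8 CPM in the DICER1-ifKO libraries, and 113.7, 137.7 and 124.5 CPM in the WT libraries, which were separate (log2 fold change 0.20, SE 0.06; edgeR, Benjamini-Hochberg adjusted p 0.179). Cdh2, or N-cadherin, was at 0.11 (adjusted p 0.456).

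The protocadherins and giant cadherins that lie outside the clusters, which have their own single-gene promoters, were not called either. Of 15 tested 12 were positive, against 49.0% of all tested genes, the median log2 fold change was 0.07, and 6 had an unadjusted p below 0.05, against 10.4% of all tested genes. Pcdh20 had 90.3, 88.1 and 96.1 CPM in the DICER1-ifKO libraries, and 109.6, 109.9 and 100.6 CPM in the WT libraries. All DICER1-ifKO libraries lay below all WT libraries, but the difference was not called (log2 fold change -0.22, SE 0.05; edgeR p 0.000468, Benjamini-Hochberg adjusted p 0.116). Pcdh1 had 230.2, 209.7 and 236.4 CPM in the DICER1-ifKO libraries, and 199.1, 202.6 and 202.6 CPM in the WT libraries, which were separate in the other direction (log2 fold change 0.16, SE 0.05; edgeR, Benjamini-Hochberg adjusted p 0.207).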

How the data were processed

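RNA of 6 hippocampal libraries, 3 per genotype, was sequenced, from stranded mRNA libraries, on an Illumina instrument, per the labels' protocols. The submitters' processing notes name TopHat2 2.0.6, Bowtie2 2.0.5, CASAVA 1.8.2, DESeq2, SAMtools 0.1.18 and the builds GRCm38 and mm10. Counter, strand setting and annotation release were not given in the sources used here. The deposited raw counts, named so per the file headers, are whole reads per listed transcript. The deposited normalised signal is each count over a library factor (0.967, 1.13 and 1.28 in DICER1-ifKO and 0.720, 0.994 and 1.01 in WT) and was not tested. The counts had been assumed to be per transcript over exons; they proved to cover whole intervals.

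For each symbol the listed transcript of highest mean count was used. Genotypes were compared with edgeR 4.0.16 in R 4.3.3 (TMM, filterByExpr with a minimum count of 10, genotype only), adjusted over 17405 genes; 3 reads equal 0.146 to 0.255 CPM, the common biological coefficient of variation was 0.0464, and the test was checked on simulated counts. Replicates are stated to be biological, and no pair of libraries of a genotype agreed within sampling noise (chi-square per degree of freedom 1.75 to 4.36). Segments were tested in a second fit over 17420 features in which they replaced the 2 intervals. Alternatives were DESeq2 1.42.0, other size factors, other filters, all or summed transcripts, offsets for length and GC content, a replicate block and the omission of each library. Seeds were searched in GENCODE M21 3′ UTRs.

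The members, the 5 gene lists, the 11 marker lists and the microRNAs were chosen with earlier results of these data known. Genes named were, in each cluster, the 3 tested members with the smallest p, the 2 highest per kilobase and the C-type genes, and, from each gene list, any called gene and the 2 with the smallest p; neighbours inside or beside the clusters were all named. Some genes under this rule are not reported here. Beta genes given outside this rule were chosen after their values were seen. No sequence of the clusters themselves is printed.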

Additional observations from a re-analysis of the deposited data

How the results depend on the processing

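In every alternative that gave the members an adjusted p, 0 were called; the lowest adjusted p of any member was 0.231, for Pcdhb17 with no filter on low counts. Of the named members' and segments' fold changes, 265 alternatives kept their direction and 12 turned it. The Pcdhac1 log2 fold change was -0.0014 with offsets for transcript length and GC content, -0.0010 with these and the replicate block, and -0.0084 with an interval length offset; leaving out 1 library each gave -0.0128 to 0.0617. Leave-one-out values of segments that turned were -0.247 to 0.136 (Pcdha11, second exon), -0.0648 to 0.142 (Pcdha12), -0.0236 to 0.0595 (Pcdhac2 and constant exons), -0.0421 to 0.0421 (Pcdhga3 to Pcdhgb4) and -0.0450 to 0.112 (Pcdhga10, Pcdhgb6 and Pcdhgb7). The median over Pcdhb genes ran from 0.0607 to 0.166 when leaving out libraries, that of the gamma cluster was 0.0247 with the interval length offset, and the causes were not tested. The count of all called genes, 28, was 80 with DESeq2 (which gave 3908 genes an adjusted p), 151 with no filter, 47 over all transcripts, 7 with transcripts summed, and 6 to 105 when leaving out 1 library (18 without WT replicate 1). With the replicate block it was 22, and with the block and offsets 19. The equal replicate numbers do not pair the samples: deviations of same-numbered libraries correlated at -0.068, 0.028 and -0.086, and not every library correlated best with its own number. A restriction to transcripts outside the constant exons and a subtraction of shared counts could not be run: no listed alpha or gamma transcript stops before the constant exons, and with 1 listed gene per cluster no shared count could be subtracted, which the segments replaced. Offsets for interval length and the segments were added after seeing the data. Few reads limit the beta genes and inner segments, whose standard errors reach 0.28 on the log2 scale.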
